A study of Homo sapiens with 12 samples.

Results

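SASH3, SAMSN1, LCK, CD3G, CD4 and CD28 encode an adaptor of lymphocytes, its relative, and 4 proteins of T cell receptor signalling, and their RNA was measured in a B cell lymphoma line. They were taken by symbol from the deposited expression table, where they are 6 of 20318 gene entries, each with 1 entry. The set was chosen by the measured differences of its members between AU-15330 and DMSO libraries, so those differences are given as a description with no test. The line is Z138, an established human mantle cell lymphoma line, labelled wild type. It was treated with 0.5 µM AU-15330 or with DMSO, the solvent control, for 8 h or 24 h. Apart from a separate batch for each time, nothing else distinguishes the groups in the labels. AU-15330 is a proteolysis-targeting chimera, a molecule that brings a protein to the ubiquitin machinery for degradation. It degrades the ATPase subunits SMARCA2 and SMARCA4 of the chromatin remodeller known as BAF or SWI/SNF, together with PBRM1. The labels list 12 samples, 3 in each of the 4 groups, all from 1 line. A pair of columns for DMSO at 8 h carried the same name and identical values, so they were counted as 1 sample and 11 libraries were analysed. DMSO at 8 h has n = 2 and the other groups have n = 3.

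In T cells the antigen receptor has no kinase of its own. CD4 brings the SRC family kinase LCK to the receptor, LCK phosphorylates the signalling tails of the CD3 chains, among them CD3G and CD247, and CD28 adds a costimulatory signal when it binds CD80 or CD86 on another cell. SASH3 is an adaptor with an SH3 and a SAM domain, found in lymphocytes, and its loss causes an immunodeficiency in humans. SAMSN1 has the same kind of domains and restrains B cell activation. B cells normally lack the T cell receptor, although LCK is found in some B cell malignancies and CD28 in plasma cells.

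Levels are normalised counts, obtained by inverting the transform of the deposited log2 values, and 59.6 of them equal 1 CPM (the count scaled to a common library total, median library). They are not corrected for gene length and are compared within a gene only. The estimated total count was 50741217 to 67549182 per library, and precision at low levels is limited by this depth. Differences are on the scale log2(normalised count + 60) with the standard error (SE) and understate the change of genes near or under 60 normalised counts. The test was limma's, its p-values were adjusted by Benjamini and Hochberg's method over the 12721 entries that reached 1 CPM in 3 or more libraries, and a gene is called below 0.05. It was run on the deposited log2 scale, which compresses changes at low levels, while differences and SE are printed on log2(normalised count + 60), so a p-value cannot be worked out from the difference and SE beside it. The labels do not say that replicates were separate cultures, so p-values reflect only how much these samples vary, which may be technical. Each time is also its own batch in the labels. The summed level of 8 B cell markers was 517 to 1553 CPM in all libraries. Of 10 T cell markers, a list without CD247, 9 had values, and their sum was 0.432 to 2.38 CPM, with 6 of the 9 listed at 0 in at least 1 library. CD247, also a T cell marker, was left out of this sum. It alone had 999.9 to 1282 normalised counts, more than the others together in every library. The sum of 9 NK cell markers, 5 of them with values, was 0.881 to 5.06 CPM, and that of 9 myeloid markers, also 5 with values, was 0.237 to 1.53 CPM.

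**Figure D1:**
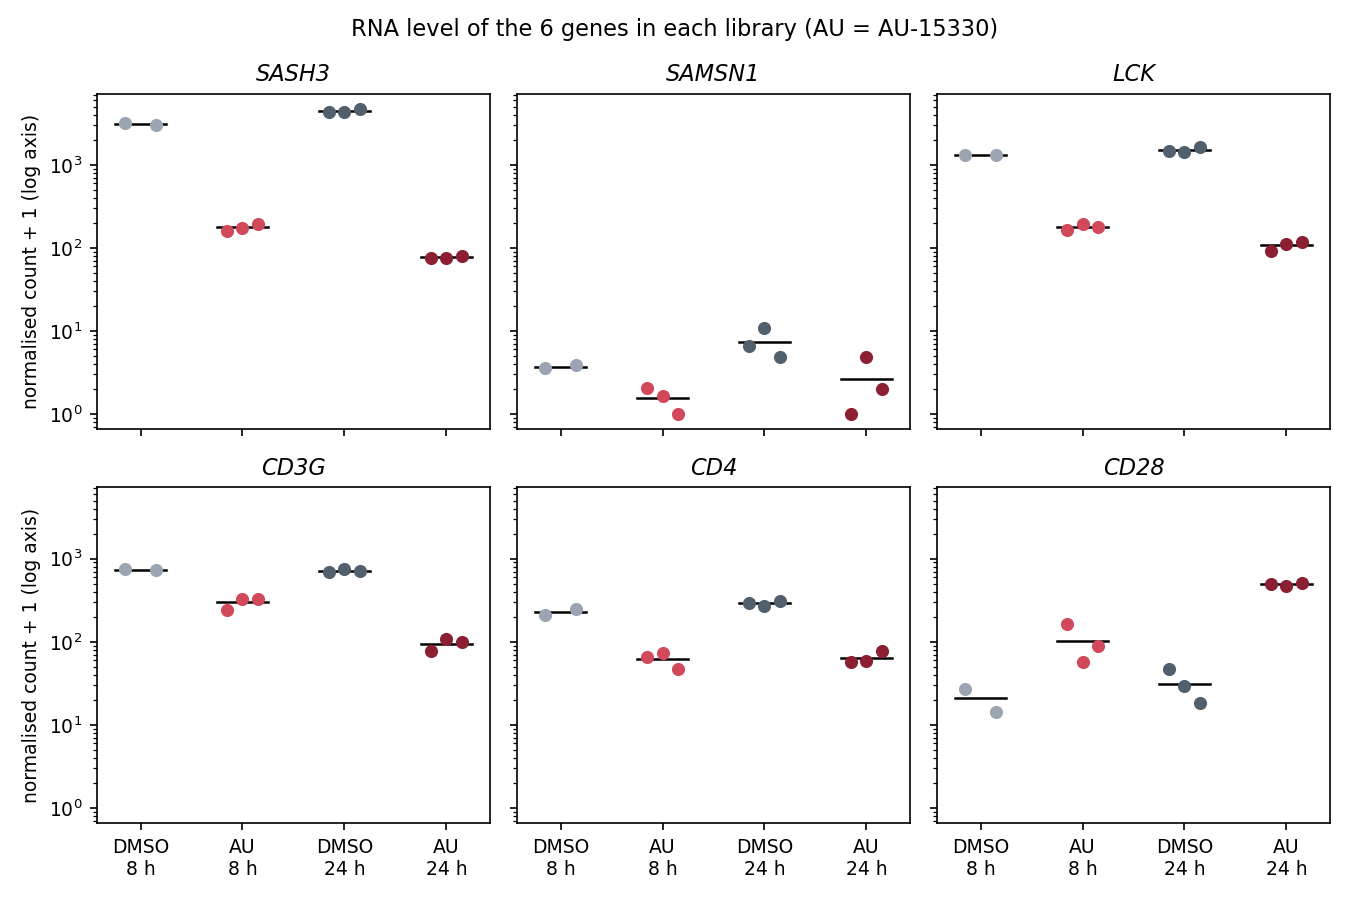
RNA level of the 6 genes in each of the 11 libraries, as normalised count + 1 on a shared log axis, with lines at group means (AU is AU-15330). SASH3, LCK, CD3G and CD4 are lower in every AU-15330 library than in any DMSO library of the same time, CD28 is higher, and SAMSN1 stays under 10 normalised counts throughout.

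SASH3 had the lowest difference from DMSO of all 12721 genes tested, at both times. It lies on chromosome X (GRCh38, 129779979 to 129795201, plus strand), where a non-coding gene, AL023653.1, overlaps it on the same strand. In DMSO at 8 h it had 3220 and 3003 normalised counts in replicates 1 and 2, and in AU-15330 at 8 h it had 160, 173 and 195. After 24 h the DMSO libraries had 4371, 4281 and 4731 and the AU-15330 libraries 75.0, 73.9 and 79.0. The treated libraries were far below all controls and close to one another. They held 5.67% of the DMSO mean at 8 h (range over libraries 5.16% to 6.28%) and 1.70% at 24 h (1.66% to 1.77%). The log2 difference was -3.75 ± 0.0846 at 8 h and -5.05 ± 0.0757 at 24 h (SE).

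The bases before the start of SASH3 and of LCK, the members furthest below DMSO, and of CD28, which was higher, are shown to set the promoters side by side. They are from RefSeq on GRCh38.p14, 5′ to 3′ on the gene's strand, up to 250 bases before the start and without bases that GENCODE annotates as exon. LCK has 2 starts, a distal and a proximal one. The regions are chrX:129779699-129779948 for SASH3, chr1:32251015-32251238 and chr1:32273871-32274110 for LCK, and chr2:203706389-203706474 for CD28, all on the plus strand. Capitals mark matches to motifs searched on both strands.
SASH3: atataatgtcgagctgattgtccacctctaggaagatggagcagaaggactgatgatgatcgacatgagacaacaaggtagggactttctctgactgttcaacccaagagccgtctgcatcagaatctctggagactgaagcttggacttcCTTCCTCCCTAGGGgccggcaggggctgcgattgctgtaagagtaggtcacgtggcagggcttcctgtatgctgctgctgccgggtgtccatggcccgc
LCK distal: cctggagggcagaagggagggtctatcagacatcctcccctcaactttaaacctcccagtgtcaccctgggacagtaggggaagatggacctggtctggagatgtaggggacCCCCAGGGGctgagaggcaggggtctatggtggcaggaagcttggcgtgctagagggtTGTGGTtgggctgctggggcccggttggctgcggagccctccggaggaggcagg
LCK proximal: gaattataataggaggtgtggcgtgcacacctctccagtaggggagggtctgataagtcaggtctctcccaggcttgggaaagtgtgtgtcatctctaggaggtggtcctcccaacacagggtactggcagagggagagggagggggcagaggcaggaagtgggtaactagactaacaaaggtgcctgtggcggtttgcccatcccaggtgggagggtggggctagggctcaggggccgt
CD28: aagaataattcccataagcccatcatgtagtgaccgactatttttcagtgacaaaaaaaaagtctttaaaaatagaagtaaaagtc
The motifs were PU.1 (GAGGAAG), the composite element of ETS and IRF factors, RUNX (TGTGGT), the octamer (ATGCAAAT), AP-1 (TGANTCA), EBF (CCCNNGGG), TCF and LEF (CTTTGA) and the NF-kappaB motif. The capitals of SASH3 are a PU.1 match on the minus strand and an EBF match that share 1 base. Those of the distal LCK promoter are overlapping EBF matches and a RUNX match. The proximal LCK promoter matched none of the motifs in its 250 bases. The CD28 window held a RUNX match and a match to the composite, both in its unprinted part. Of 35116 promoter windows of the same length in the table, 11.2% held the PU.1 motif, 17.1% EBF, 11% RUNX, 2.41% the composite, 1.63% the octamer, 6.57% AP-1, 11.2% TCF and LEF and 0.527% NF-kappaB. The matches describe letters only. SAMSN1 has 4 windows in the table, 2 with a TCF and LEF match, 1 with PU.1 and 1 with AP-1. Promoters of CD3G and CD4 are not shown.

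SASH3 moved with time in opposite directions in the 2 treatments. In DMSO it was higher at 24 h than at 8 h, by 0.51 ± 0.0846 (limma adjusted p = 0.000178), and all 3 libraries at 24 h were above both at 8 h. In AU-15330 it was lower at 24 h, by -0.79 ± 0.0757 (limma adjusted p = 0.000967), again without overlap. The change of the treatment effect from 8 h to 24 h was -1.31 ± 0.113. That change is not tested because it is made of the contrasts that chose the gene. Time and batch cannot be told apart in the tests within 1 treatment. For this gene and the other members these tests use the same libraries as the contrasts that chose them. Their p-values are therefore not independent of the choice.

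SAMSN1, the relative of SASH3, was barely measured (chromosome 21, 14485228 to 14658821, minus strand). It had 2.59 and 2.86 normalised counts in DMSO at 8 h and 1.04, 0.672 and 0 in AU-15330 at 8 h. The values at 24 h were 5.59, 9.84 and 3.83 in DMSO and 0, 3.87 and 1.00 in AU-15330. These levels are close to 0 in all groups, and a library listed at 0 allows up to 3 counts. The groups at 24 h overlapped, SAMSN1 did not reach 1 CPM in any library, and it was not tested. A gene on the opposite strand, SAMSN1-AS1, overlaps it, and whether counting used strand is unstated. SASH1, another relative of SASH3, was also under the filter, with 0.12 CPM at most.

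LCK, the kinase that starts T cell receptor signalling, was the member next furthest below DMSO (chromosome 1, 32251239 to 32286165, plus strand). In DMSO at 8 h it had 1306 and 1305 normalised counts, and in AU-15330 at 8 h 162, 192 and 175. The 24 h libraries had 1451, 1423 and 1625 in DMSO and 90.8, 112 and 118 in AU-15330. No treated library came near a control. A small RNA gene, RF00017, overlaps LCK on the opposite strand. The treated mean was 13.5% of DMSO at 8 h and 7.13% at 24 h, with log2 differences of -2.53 ± 0.101 and -3.23 ± 0.0904. Among all tested genes these ranked 17 and 13 from the lowest. Within AU-15330 it was lower still at 24 h, by -0.50 ± 0.0904 (limma adjusted p = 0.00866). Its difference of 0.19 ± 0.101 in DMSO was not called (limma adjusted p = 0.106), although the 3 libraries at 24 h lay above the 2 at 8 h.

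CD3G, a chain of the CD3 complex, was less far below DMSO at 8 h than at 24 h (chromosome 11, 118344344 to 118355161, plus strand). It had 743 and 734 normalised counts in DMSO at 8 h and 241, 327 and 323 in AU-15330 at 8 h. By 24 h there were 685, 741 and 707 in DMSO and 76.7, 106 and 99.5 in AU-15330. The groups did not overlap at either time, and the treated libraries at 24 h lay below those at 8 h. The treated mean was 40.2% of DMSO at 8 h and 13.2% at 24 h, with log2 differences of -1.17 ± 0.126 and -2.33 ± 0.112. From 8 h to 24 h CD3G changed by -1.21 ± 0.112 in AU-15330 (limma adjusted p = 3.24e-05), and the difference of -0.05 ± 0.126 in DMSO was not called (limma adjusted p = 0.788).

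The other chains of the complex gave different pictures. CD3E, which forms a pair with CD3G in T cells, had 52.2 and 47.6 normalised counts in DMSO at 8 h and 9.42, 6.43 and 13 in AU-15330 at 8 h. At the later time it had 75.8, 59.2 and 65.1 in DMSO and 1.72, 1.95 and 0 in AU-15330. The groups were separate at both times, but CD3E reached 1 CPM in too few libraries to be tested. CD3D, whose gene lies 1600 bp from CD3G, had at most 11.7 normalised counts in any library. CD247, the zeta chain, had 1172 and 1282 normalised counts in the DMSO libraries of 8 h and 1006, 1042 and 999.9 in those of AU-15330, with log2 differences of -0.26 ± 0.0651 at 8 h (limma adjusted p = 0.00713) and -0.23 ± 0.0583 at 24 h (limma adjusted p = 0.0065). Its call at 8 h was lost without DMSO 8 h replicate 2 (-0.20, limma adjusted p = 0.0776).

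CD4, the coreceptor that carries LCK, was low by 8 h and was not called lower at 24 h (chromosome 12, 6786858 to 6820808, plus strand). It had 211 and 245 normalised counts in DMSO at 8 h and 64.1, 71.6 and 45.6 in AU-15330 at 8 h. At 24 h the values were 296, 270 and 308 in DMSO and 56.7, 57.2 and 75.9 in AU-15330. The treated groups of the 2 times overlapped. The treated mean was 26.5% of DMSO at 8 h and 21.7% at 24 h, with log2 differences of -1.26 ± 0.128 and -1.51 ± 0.114. Neither the difference between times in AU-15330 (0.04 ± 0.114, limma adjusted p = 0.847) nor that in DMSO (0.29 ± 0.128, limma adjusted p = 0.132) was called.

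CD28, the costimulatory receptor, was the 1 member that was higher under AU-15330 (chromosome 2, 203706475 to 203738912, plus strand). In DMSO at 8 h it had 26.3 and 13.4 normalised counts, and in AU-15330 at 8 h 163, 56.4 and 87.1. Values at 24 h were 45.7, 28.1 and 17.4 in DMSO and 492, 471 and 511 in AU-15330. It was under 1 CPM in every DMSO library and passed the filter through the treated libraries alone. The spread at 8 h was wide, with replicate 1 well above the others, and the 3 treated libraries at 24 h were close together. The mean was 5.15-fold the DMSO mean at 8 h and 16.2-fold at 24 h. On the log2 scale with 60 added, the differences were 0.97 ± 0.229 and 2.62 ± 0.205, and the latter ranked 3 from the highest of all genes tested. Within AU-15330 the difference of CD28 between 24 h and 8 h was 1.82 ± 0.205, given with no test because the libraries where it is high brought it past the filter. Its difference of 0.17 ± 0.229 in DMSO was not called (limma adjusted p = 0.694), which says little at levels under 1 CPM.

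**Figure D2:**
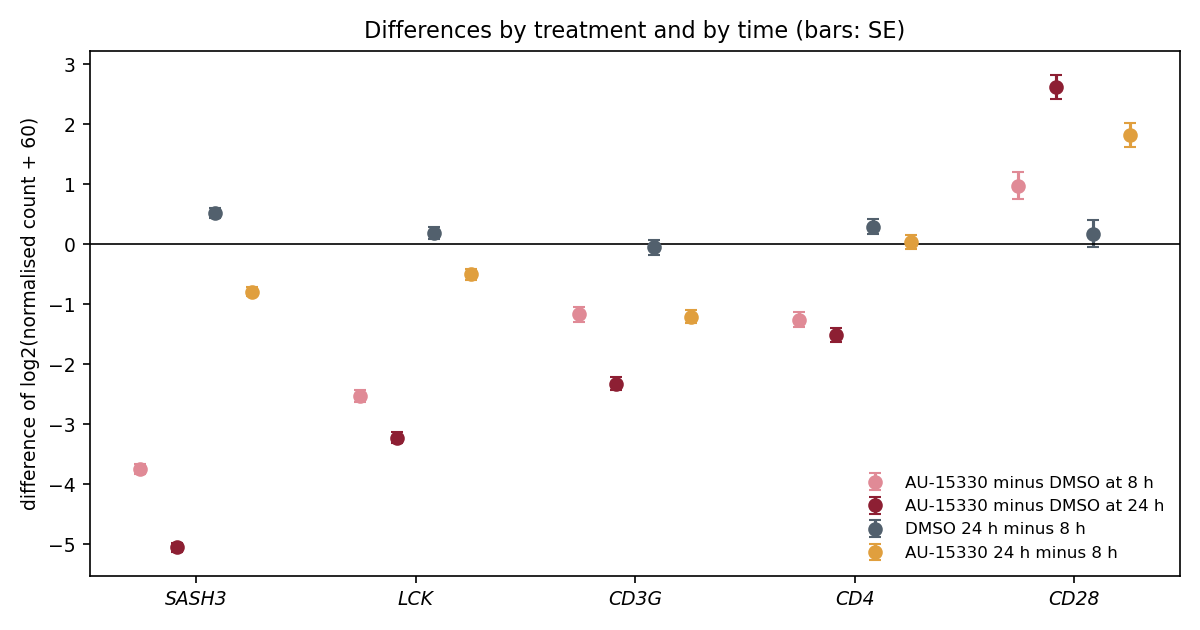
Differences of log2(normalised count + 60) for the 5 members that were tested, by treatment at each time and by time within each treatment, with SE bars. SASH3 reaches -5.05 at 24 h and CD28 2.62, and the differences within DMSO lie between -0.05 and 0.51.

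Of SASH3, LCK, CD3G and CD4, 3 were called lower and none higher between 24 h and 8 h within AU-15330, CD28 being left out of the count, and over all genes 39.4% were called in that comparison, 18.3% higher and 21.1% lower. Within DMSO 1 of these 4, SASH3, was called, and over all genes 10.1% were. These tests share libraries with the contrasts that chose the members, so nothing is read from the counts. The comparison within DMSO called 6.56% of all genes higher and 3.56% lower, so that 35.2% of its calls were lower, against 49.8% on log2(CPM + 1). Between AU-15330 and DMSO 4 members were lower and 1 higher without overlap at both times. Over all tested genes 29.3% were lower and 33.2% higher without overlap at 8 h (62.5% in all), and 29.6% and 29.4% at 24 h (59% in all). The members were chosen on this contrast, so nothing is read from their count. Over all genes 18.5% were called for a change of the treatment effect from 8 h to 24 h, 7.54% higher and 11% lower, and 59.3% of these calls were lower against 40.7% on log2(CPM + 5). This change was -0.69 ± 0.136 for LCK, -1.16 ± 0.169 for CD3G, -0.25 ± 0.171 for CD4 and 1.65 ± 0.307 for CD28. SASH3, LCK, CD3G and CD4 were further below DMSO at 24 h than at 8 h in their group means, and CD28 was further above it.

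Other genes of these pathways were taken from lists by function. Of 129 genes in 10 lists, 67 were tested. Over all tested genes 44.2% were called at 8 h, 22.9% higher and 21.4% lower, and 50.9% at 24 h, 24.7% higher and 26.2% lower. Of the 67, 3 rose and 41 (61.2%) fell at 8 h, and 5 rose and 47 (70.1%) fell at 24 h. Some that fell, among them TCF7, FGR, CD22 and PRF1, passed the filter through the DMSO libraries alone. The lists hold many genes of B cells, and 8 are markers of them. They were chosen with earlier results of these data known, so nothing is read from these counts. The median log2 difference over all tested genes was 0.02 at 8 h and 0.01 at 24 h. In DMSO, 22 of the 67 (32.8%) were called higher at 24 h than at 8 h and 1 lower. The shares over all genes were 6.56% higher and 3.56% lower. Of the 67, 11 were called higher without DMSO 8 h replicate 1 and 12 without replicate 2. Genes called higher over all those tested numbered 834 with all libraries, 484 without replicate 1 and 463 without replicate 2.

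Of 8 SRC family kinases, none was called higher, 3 fell at 8 h and 4 at 24 h, with medians of -0.29 and -0.11. FGR, a kinase of myeloid and B cells, had log2 differences of -2.003 ± 0.14 and -2.74 ± 0.126 at the 2 times, with means at 24 h of 452 normalised counts (DMSO) and 16.1 (AU-15330). BLK, a kinase of B cells, changed by -0.79 ± 0.103 and -1.02 ± 0.0924, and LYN, which starts B cell receptor signalling, by -0.73 ± 0.0788 and -0.90 ± 0.0705. The limma adjusted p-values of these 3 kinases were 0.000187 or less at both times. FGR was under 1 CPM in every AU-15330 library and passed the filter through the DMSO libraries alone. Its p-values are therefore not independent of the filter. FYN, the SRC family partner of LCK in T cells, had differences of -0.22 ± 0.394 and 0.50 ± 0.353 that were not called.

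Of 27 genes of proximal T cell receptor signalling, 16 were tested. At 8 h 1 rose, 10 fell and 5 were not called, and at 24 h 1 rose, 11 fell and 4 were not called, with medians of -0.45 and -0.48. The kinase next to LCK in the pathway, ZAP70, had at most 0.08 CPM, and the adaptor LCP2 was listed at 0 in 5 libraries. RASGRP1, an activator of RAS, changed by -1.34 ± 0.178 and -2.24 ± 0.159 (limma adjusted p = 0.000205 and 6.5e-07). PAG1, an adaptor that brings the inhibitory kinase CSK to the membrane, had differences of -0.52 ± 0.208 and -1.19 ± 0.186. The value of PAG1 at 8 h was not called (limma adjusted p = 0.0659), and it was called without AU-15330 8 h replicate 3 (-0.65, limma adjusted p = 0.0402), AU-15330 24 h replicate 1 (0.0447) or AU-15330 24 h replicate 3 (0.0314). LAT, the membrane scaffold that is phosphorylated by ZAP70, was higher at 24 h by 0.33 ± 0.105 (limma adjusted p = 0.0216), a call that was lost without AU-15330 24 h replicate 1 (0.30, limma adjusted p = 0.0665), DMSO 24 h replicate 1 (0.30, 0.0701) or DMSO 24 h replicate 3 (0.31, 0.0625). At 24 h LAT had 34.7 to 45.6 normalised counts in DMSO and 60.7 to 69.0 in AU-15330, close to 1 CPM. It passed the filter through those AU-15330 libraries and the higher DMSO library at 8 h (73.8). Its call is therefore not independent of the filter.

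The ligands of CD28 were lower where CD28 was higher. CD80 changed by -1.54 ± 0.116 at 8 h and -1.97 ± 0.104 at 24 h, and CD86 changed by -1.20 ± 0.128 and -1.52 ± 0.115. ICOSLG, which binds the CD28 relative ICOS, changed by -0.93 ± 0.086 and -1.22 ± 0.0769. The limma adjusted p-values of the 3 ligands were 1.16e-05 or less at both times. PDCD1, a receptor of the same family that restrains T cells, and CD274, its ligand, were not called at either time. At 24 h PDCD1 was called without AU-15330 24 h replicate 1 (0.95, limma adjusted p = 0.00138) and CD274 without DMSO 24 h replicate 2 (0.59, limma adjusted p = 0.0254). PDCD1 has 2 entries in the table, and the higher one was used. Of 11 genes of the family and its ligands, 5 were tested, and the medians were -0.93 and -1.22.

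Of 22 adaptors with SH2 or SH3 domains in blood cells, 18 were tested, and at 24 h 2 rose, 14 fell and 2 were not called (1, 10 and 7 at 8 h). GRAP, a relative of GRB2, changed by -2.72 ± 0.193 and -3.30 ± 0.172, but it has a near-identical neighbour and its value is uncertain. SH3TC1, which has an SH3 domain, changed by -1.42 ± 0.109 and -3.25 ± 0.0978, and SIT1, a membrane adaptor that interacts with the phosphatase SHP2, by -2.11 ± 0.0978 and -1.96 ± 0.0875. Their limma adjusted p-values were 2.18e-07 or less. SH3BP2, an adaptor of SYK and PLCG signalling, rose by 0.79 ± 0.102 at 24 h (limma adjusted p = 4.09e-05) and had 0.00 ± 0.114 at 8 h.

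Of 18 transcription factors of the T lineage, 11 were tested. At 8 h 7 fell, 1 rose and 3 were not called, and at 24 h 6 fell, 2 rose and 3 were not called, with medians of -0.46 and -0.23. TCF7, which drives early T cell development, had group means of 296 (DMSO) and 30.6 (AU-15330) normalised counts at 8 h, and its log2 difference was -1.97 ± 0.128 at 8 h and -2.03 ± 0.114 at 24 h. RUNX3, a factor of cytotoxic T cells that B cells also express, changed by -0.58 ± 0.0905 and -1.22 ± 0.081, and NOTCH1 by -0.92 ± 0.0531 and -0.96 ± 0.0475. For TCF7, RUNX3 and NOTCH1 the limma adjusted p-values were 0.000208 or less. TCF7 was under 1 CPM in every AU-15330 library and passed the filter through the DMSO libraries alone. Its p-values are therefore not independent of the filter. LEF1, a relative of TCF7, and ZBTB7B, which directs T cells to the CD4 lineage, rose at 24 h by 0.47 ± 0.0403 and 0.47 ± 0.0859.

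Markers of B cells were lower in the same libraries as SASH3, LCK, CD3G and CD4. All 7 tested of 8 fell at 24 h and 6 at 8 h, with log2 differences of -1.63 ± 0.0743 and -2.23 ± 0.0665 for CD79B and -1.53 ± 0.15 and -2.42 ± 0.134 for CD22. CD22 was under 1 CPM in every AU-15330 library and passed the filter through the DMSO libraries alone. The summed level of the 8 markers was 1215 to 1251 CPM in DMSO and 613 to 665 in AU-15330 at 8 h, and 1526 to 1553 and 517 to 544 at 24 h. That of the T cell markers without CD247 was 1.31 to 1.32 CPM in DMSO and 0.432 to 0.483 in AU-15330 at 8 h, and 2.04 to 2.38 and 0.777 to 0.82 at 24 h. The part of these markers in the differences of the members was not tested. PRF1, the pore protein of cytotoxic cells and the single NK marker tested, changed by -1.15 ± 0.139 and -1.37 ± 0.125 (limma adjusted p = 7.4e-05 and 4.38e-06). It too was under 1 CPM in every AU-15330 library and passed the filter through the DMSO libraries alone. The p-values of PRF1 and the calls of CD22 are therefore not independent of the filter. Fewer cells of a type and less RNA per cell cannot be told apart in these bulk samples.

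**Figure D3:**
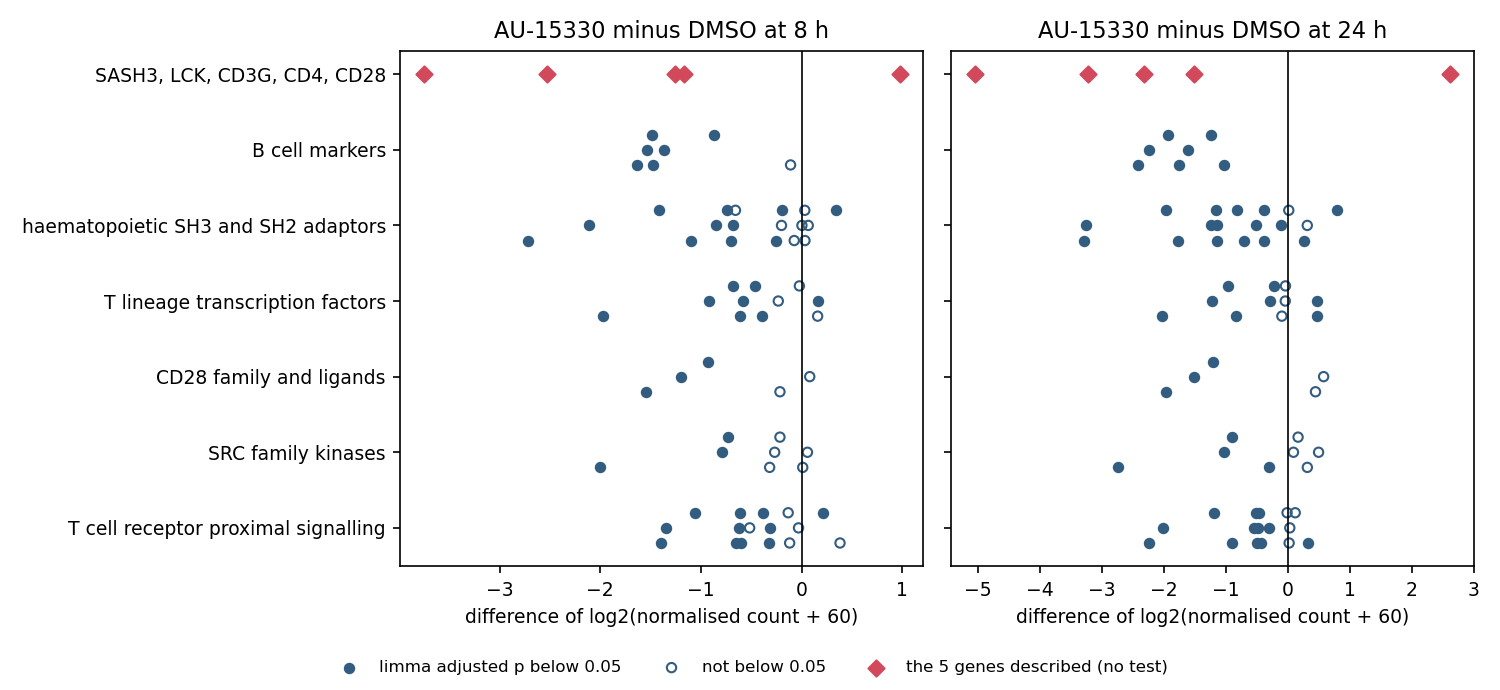
Difference of AU-15330 from DMSO libraries at each time, as log2(normalised count + 60), for each tested gene of 6 lists and, as diamonds, for the 5 members. Filled points have a limma adjusted p below 0.05. Most filled points lie left of 0, and SASH3 lies furthest left at both times.

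The genes beside the members were called in both directions. Of the 24 nearest protein-coding genes, 2 on each side of each member, 13 were tested, and 4 were higher, 2 lower and 7 not called at 8 h and 4 were higher, 3 lower and 6 not called at 24 h, against 24.7% of all genes higher and 26.2% lower at 24 h. Beside SASH3, ZDHHC9, a palmitoyltransferase 8087 bp away, rose by 0.61 ± 0.0825 at 8 h (limma adjusted p = 0.000104). Its value of 0.20 at 24 h (limma adjusted p = 0.0479) was no longer called when any of 7 single libraries was left out, namely AU-15330 24 h replicates 2 and 3, DMSO 24 h replicates 2 and 3, AU-15330 8 h replicate 1 and either DMSO 8 h library, with limma adjusted p-values from 0.0589 to 0.161. APLN, a peptide hormone gene 125042 bp away on the other side of SASH3, changed by -0.60 ± 0.0968 at 24 h (limma adjusted p = 0.000594). UTP14A, a ribosome biogenesis gene 110920 bp from SASH3, rose by 0.36 ± 0.0423 at 8 h and had -0.06 ± 0.0378 at 24 h.

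Beside LCK, HDAC1, a histone deacetylase 5921 bp away, had differences of -0.10 ± 0.0398 and -0.05 ± 0.0356, neither of them called. With quantile normalisation the HDAC1 value at 8 h was called lower (-0.15, limma adjusted p = 0.0122), and on log2(CPM + 1) the value at 24 h was 0.0074. MARCKSL1, an actin-binding protein gene, rose by 0.21 ± 0.035 and 0.51 ± 0.0313. EIF3I, a translation factor gene, had 0.14 ± 0.0577 at 24 h and was not called (limma adjusted p = 0.0555). Beside CD3G, UBE4A had differences of -0.005 ± 0.0601 at 8 h and -0.04 ± 0.0537 at 24 h and ATP5MG of 0.03 ± 0.055 and 0.11 ± 0.0492, which were not called. PTMS, 15906 bp from CD4, rose by 0.73 ± 0.048 at 24 h (limma adjusted p = 2.2e-07). ABI2, 258752 bp from CD28, rose by 0.81 ± 0.079 at 24 h (limma adjusted p = 4.13e-06). CTLA4 and ICOS, the relatives next to CD28, had no value analysed here. The tested genes nearest SAMSN1 lie far from it. NRIP1, a nuclear receptor corepressor 302414 bp away, changed by -1.06 ± 0.196 and -0.79 ± 0.175. HSPA13, 101744 bp away, changed by -0.17 ± 0.0486 and -0.29 ± 0.0434. USP25, 1071204 bp away, had 0.23 ± 0.0999 at 24 h, which was not called. The call of HSPA13 at 8 h was lost without DMSO 8 h replicate 1 (-0.17, limma adjusted p = 0.064) or replicate 2 (-0.18, 0.0533).

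**Figure D4:**
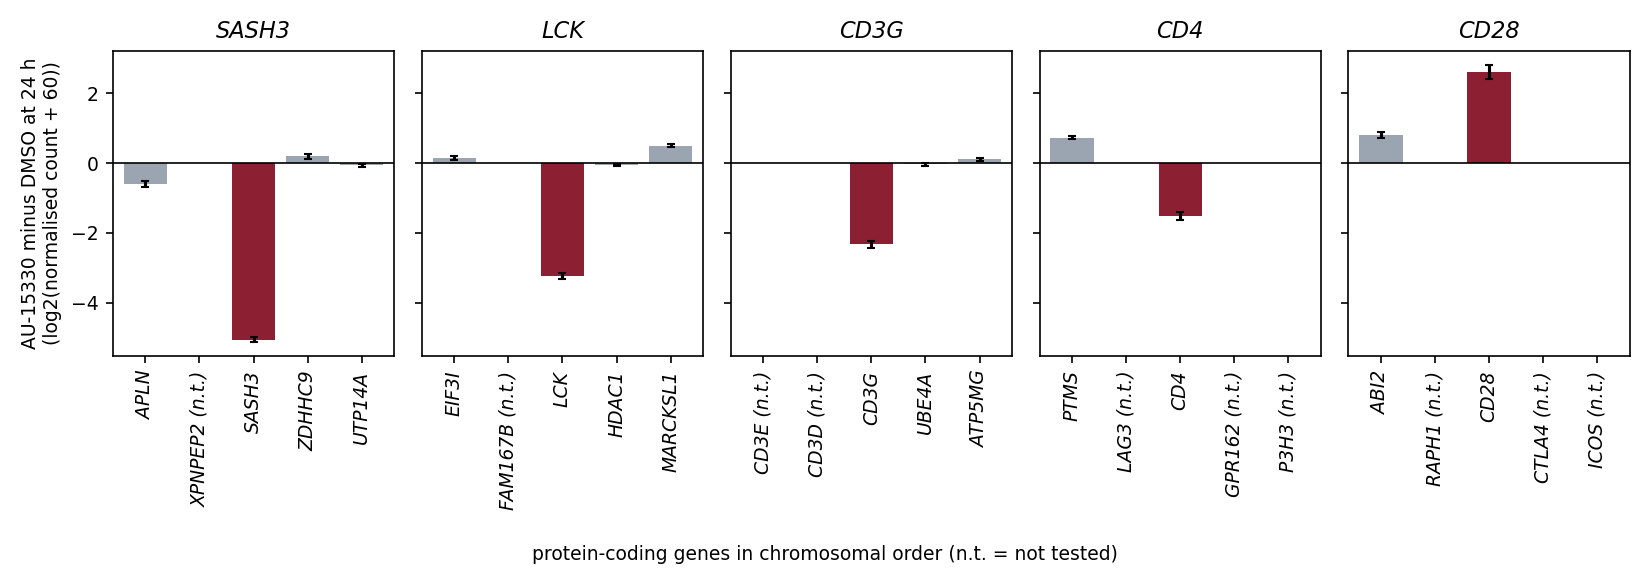
Difference between AU-15330 and DMSO at 24 h, as log2(normalised count + 60) with SE bars, for each tested member in dark red and its nearest protein-coding genes in grey, in chromosomal order (n.t. is not tested). The members reach -5.05 to 2.62, and the tested neighbours shown lie between -0.60 and 0.81.

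The genes most like each member were found by the root mean square difference of log2(normalised count + 60) over the 11 libraries, after each gene was centred on its mean, among 10533 genes with a symbol and at least 5 CPM in a group (10534 for CD4). SAMSN1 was too low for such a comparison. The libraries share their groups, and the likeness describes them only. SASH3 had no close match in size. The nearest genes were IL16, a cytokine gene, at 0.549, CSF2RB, a cytokine receptor chain, at 0.629 and CD48, an adhesion molecule, at 0.674. LCK was nearer to LYL1, a transcription factor of blood cells, at 0.172, to CD48 at 0.192 and to ZMIZ1, a transcriptional coregulator, at 0.194. CD3G was nearest to BTK, a kinase of B cell receptor signalling, at 0.134, which changed by -1.15 at 8 h and -2.50 at 24 h. Next to CD3G were CD81 at 0.168 and PDGFA at 0.174. CD4 was nearest to TUBB2B at 0.129, ADORA2A and KCNAB2, both at 0.138, and CD28 to CCDC110 at 0.308, RGS9 at 0.361 and ZNF703 at 0.362. Among the members themselves SASH3 and LCK had the same shape but different size (Pearson's r 0.998 over 11 libraries, root mean square difference 0.792), and SASH3 and CD28 ran against each other (r = -0.846), both values being set largely by the treatment.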

How the data were processed

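Per the labels' protocols, libraries were made by poly(A) selection or ribosomal RNA removal, without saying which for each sample. Reads were checked with FastQC 0.11.9, per the labels' protocols. Trimmomatic 0.40, the DESeq2 1.24.0 package in R 4.3.2, kallisto 0.46.1 and the build GRCh38.p13 are named in the submitters' processing notes. The authors deposited 1 table of log2 values for 20318 entries. Its name says log CPM, but every library has the lowest value 10.3605, the floor left by a variance-stabilising transformation. A doubling is 0.163 on it at 100 normalised counts and 0.461 at 1000. The transform was inverted to normalised counts. After scaling to reads, 53.8% to 56.4% of values up to 20 lay within 0.02 of a whole number, so no count test was used. The table has 12 value columns, of which 1 is a copy and was not used. The design had assumed log CPM values and was kept otherwise.

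The deposited log2 values were modelled by group means in limma 3.58.1 (R 4.3.3) with a mean-dependent variance prior and 7 residual degrees of freedom, on 12721 entries (62.61%). The fit was also run on simulated data with few changed genes and independent noise. Those differ from these data, and nothing is read from that run. Of entries sharing a symbol, the one with the highest mean was used. Of the 20318 entries, 18573 have an ID in GENCODE release 29 (GRCh38), which gave coordinates. Promoters are RefSeq's, GRCh38.p14, and 4 of the 6 members had one. The members, lists and alternatives were chosen with earlier results of these data known. Genes named are the members, of each list the 3 called genes with the largest difference at 24 h and the largest opposite one, tested neighbours and the 3 genes most like each member, and 2 genes that meet this rule are not reported here. CD3E, CD3D, FYN, ZAP70, LCP2, PDCD1, CD274, SASH1 and LEF1 were added after their values were seen. Other steps used Python 3.11.15 with NumPy 2.4.6 and pandas 2.3.3, and figures Matplotlib 3.10.9.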

Additional observations from a re-analysis of the deposited data

Results flagged for a closer look

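For SASH3 and LCK every library at 24 h was above those at 8 h in DMSO and below them in AU-15330. The difference between times in DMSO was called for SASH3 and was not called for LCK (0.19, limma adjusted p = 0.106). The change of the treatment effect from 8 h to 24 h was -1.31 for SASH3 and -0.694 for LCK on the log2(normalised count + 60) scale, and this difference was not tested.

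For other genes named above from the lists and among the neighbours, the effect of AU-15330 differed between 24 h and 8 h in limma's test of that difference, with an adjusted p below the threshold. It was lower at 24 h for SH3TC1 (-1.83), RASGRP1 (-0.896), CD22 (-0.89), FGR (-0.737), APLN (-0.672), RUNX3 (-0.639), CD79B (-0.603), UTP14A (-0.417) and ZDHHC9 (-0.412). It was higher at 24 h for SH3BP2 (0.786), ABI2 (0.644), PTMS (0.384), LEF1 (0.307) and MARCKSL1 (0.3). Between times, RASGRP1, CD22 and FGR were called in DMSO (0.67, 0.70 and 0.49, higher at 24 h) and not in AU-15330. UTP14A was called in both treatments, and the other genes of this paragraph in AU-15330 only. Each time is its own batch, so a change of the effect with time and one with batch cannot be told apart. CD22 and FGR were under 1 CPM in every AU-15330 library. The list genes were named for large differences at 24 h, or after their values were seen. For them this test is not independent of the choice, and nothing is read from their number. The genes most like each member were picked for their pattern over the same libraries and were not tested for this. Over all tested genes 11% were called lower and 7.54% higher in this comparison, and of its calls 59.3% were lower, against 40.7% on log2(CPM + 5).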

How the results depend on the processing

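Every difference between AU-15330 and DMSO of SASH3, LCK, CD3G, CD4 and CD28 kept its direction under all alternatives run. With log2(CPM + 5) the differences at 8 h and 24 h were smaller, as a larger pseudocount shrinks them by construction, at -2.85 and -3.64 for SASH3, -1.76 and -2.12 for LCK, -0.81 and -1.34 for CD3G, -0.56 and -0.69 for CD4 and 0.32 and 1.29 for CD28. With quantile normalisation the values at 8 h were -3.65 for SASH3, -2.40 for LCK and -1.11 for CD4, and the cause was not tested. CD4 could not be tested at 5 CPM or more.

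Reversed values were all small and not called. The difference of CD4 between times in AU-15330 was -0.06 with quantile normalisation and -0.0557 to 0.103 when single libraries were left out. UBE4A was at 0.0013 at 8 h with library medians centred, and at 24 h at 0.017 on log2(CPM + 1) and 0.0155 on log2(CPM + 5). SH3BP2 at 8 h was at -0.0036 on log2(CPM + 1), -0.0024 on log2(CPM + 5) and -0.023 with the replicate block. HDAC1 at 24 h was at 0.0074 on log2(CPM + 1) and 0.0073 on log2(CPM + 5), and with quantile normalisation at 8 h ATP5MG was at -0.0118 and LAT at 0.0138. Leaving out single libraries gave at 8 h -0.0123 to 0.351 for ABI2 (called without DMSO 8 h replicate 1), -0.059 to 0.212 for APLN, -0.0316 to 0.092 for ATP5MG, -0.111 to 0.166 for EIF3I (called without DMSO 8 h replicate 1), -0.251 to 0.0141 for LAT, -0.101 to 0.107 for SH3BP2, -0.0673 to 0.0574 for UBE4A, -0.502 to 0.118 for FYN and -0.105 to 0.267 for PDCD1. EIF3I, ATP5MG, USP25 and CD274 at 24 h became called with library medians centred and on both CPM scales, and the cause was not tested.

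Without single libraries, 661 to 1355 genes were called between times in DMSO (1287 in all libraries, 661 without DMSO 8 h replicate 2, 688 without DMSO 8 h replicate 1 and 851 without DMSO 24 h replicate 1). For the change of the treatment effect the range was 1571 to 2414 (2358 in all libraries, 1571 without DMSO 8 h replicate 2). Whether the labels' replicate numbers pair the samples was not settled, and the main fit did not use them. Deviations of libraries with the same number had r from -0.0434 to 0.134 over 15 pairs of libraries, with a median of 0.0411. Those with different numbers had r from -0.09999 to 0.0702 over 30 pairs, with a median of -0.0242. With the replicate block the treatment calls numbered 5439 (8 h) and 6453 (24 h), and of the named genes PAG1 at 8 h and FYN (0.50), EIF3I and ATP5MG at 24 h became called, FYN at 8 h was 0.10, not called, and ZDHHC9 at 24 h was no longer called. SAMSN1 stays near 0 reads at the depth of these libraries, so its values are imprecise.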

Other observations

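TRAC, the constant gene of the T cell receptor alpha chain, was low in all groups. It had 2.65 and 0.973 normalised counts in DMSO at 8 h and was listed at 0 in all 3 AU-15330 libraries at 8 h. At 24 h it had 32.5, 34.2 and 23.7 in DMSO and 19.4, 12.8 and 10.2 in AU-15330. All libraries at 24 h were above all at 8 h, and each time is its own batch. TRAC was chosen after its values were seen and was below the filter, so it was not tested.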
